A study of Mus musculus with 2 samples.

Results

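A control immunoprecipitation has no intended target, so regions called from it mark places where reads pile up without one. In the IgG control of a ChIP-seq study of HC11 cells, 252 of the 1045 called regions lay less than 10 kb from another IgG region, and they formed 49 clusters. The members were selected on position alone. A region was a member when the gap between its edge and the edge of the nearest other IgG region on the same chromosome was under 10 kb, and members joined by such gaps made a cluster. The clusters held 24.1% of the list. The 793 IgG regions without so near a neighbour are called the other IgG regions here.

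HC11 cells, an established line of mouse mammary epithelium labelled as strain Balb/C, were grown untreated with insulin, EGF and serum. The same cells at passages 4 to 7 gave 1 library with a custom antibody against mouse Ovol2, a zinc finger transcription factor, and 1 library with a control IgG bought from Santa Cruz. The Ovol2 list held 1338 regions. With 1 library per antibody there was no replicate, so all values describe these 2 lists and no test was made. The number of reads is unknown, since the lists hold regions and not counts.

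In such controls, regions usually gather over satellite DNA, which lies in long tandem arrays beside mouse centromeres, over gene arrays and other repeats of which a genome assembly holds too few copies, and over the mitochondrial genome, of which a cell has many copies. Mouse chromosomes other than Y have the centromere at one end, and the coordinates of each begin with a placeholder for it. The clusters were described by position with this background in view. No mm9 sequence, gene or repeat annotation was used here, so no cluster was assigned to a gene, an exon or a repeat family, and what DNA lies under the regions was not tested.

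Few regions had their nearest neighbour at a distance around the 10 kb limit. It was under 10 kb away for 252 regions and under 20 kb for 264. Under 1 kb the count was 190, and under 100 kb it was 320. Between neighbours inside clusters the 203 gaps ran from 12 to 9946 bp, with a median of 530 bp, and 44 gaps were under 100 bp. The pair of neighbours just inside the limit lay 9946 bp apart on chromosome 11, between the regions that start at 3065119 and 3078775. The next member by its nearest gap belonged to a pair 9497 bp apart on the same chromosome, at 3022257 and 3031825. Between members that each had a closer neighbour on the far side, a gap of 9795 bp on chromosome 1 was bridged. Just outside the limit, a gap of 10181 bp separated a pair of clusters near the end of chromosome 2, and one of 10857 bp separated a pair on chromosome 8. The first regions left out as members were a pair on chromosome 11, at 86666171 and 86677666, with 11366 bp between them.

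**Figure D1:**
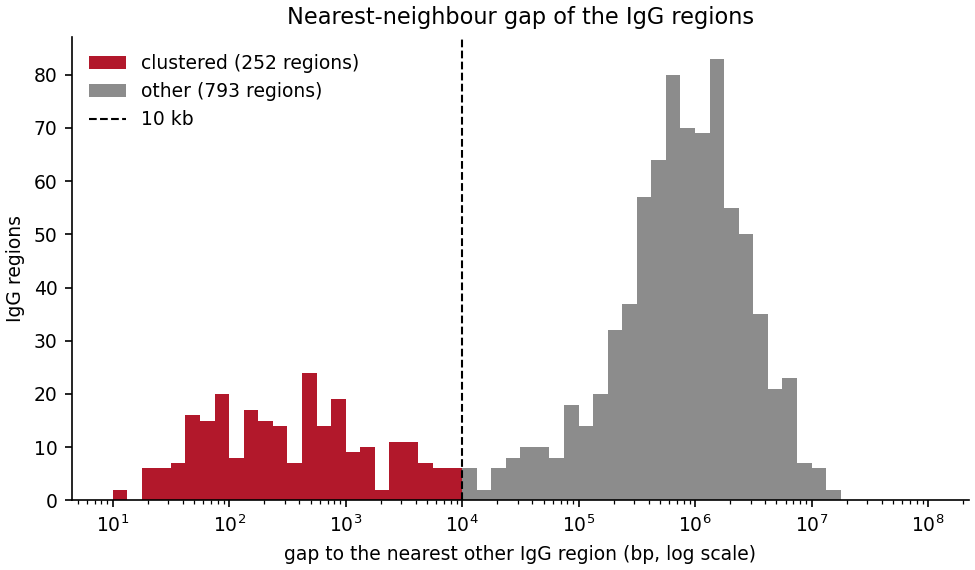
Number of IgG regions (y axis) by the gap to the nearest other IgG region in bp (log x axis), for the 252 clustered regions (red) and the 793 others (grey), with the 10 kb limit dashed. The clustered regions spread from 12 bp upwards, and few regions lie just above the limit before the main body of other regions.

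Most clusters were small, and a single one was very large. Of the 49 clusters, 20 had 2 regions, 12 had 3 and 6 had 4. The remaining 11 held 5 to 67 regions each. Spans ran from 247 to 68030 bp with a median of 2773 bp, and 14 clusters spanned less than 1 kb. Regions covered between 2.66% and 93.2% of a cluster's span, with a median of 50.4%.

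Members were unevenly spread over the chromosomes. Chromosome 9 held 67 members, all in 1 cluster, chromosome 8 held 42 in 6 clusters and X held 25 in 5. Chromosome 2 held 17 members, chromosome 11 held 15, chromosome 17 held 14, Y held 13 and chromosome 1 held 11. On chromosome 5 there were 9 and on chromosome 16 there were 8. Chromosomes 3, 10, 13 and 18 held 5 each, chromosome 4 held 3, and chromosomes 6, 15 and 19 and the mitochondrial genome held 2 each. Chromosomes 7, 12 and 14 held no member among their 14, 25 and 23 IgG regions. As a share of the IgG regions on a chromosome, members made up 64.1% on X and 59.8% on chromosome 9, against 10.7% on chromosome 1 and 2.38% on chromosome 6, which has 84 IgG regions. All IgG regions on Y and on the mitochondrial genome were members.

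**Figure D2:**
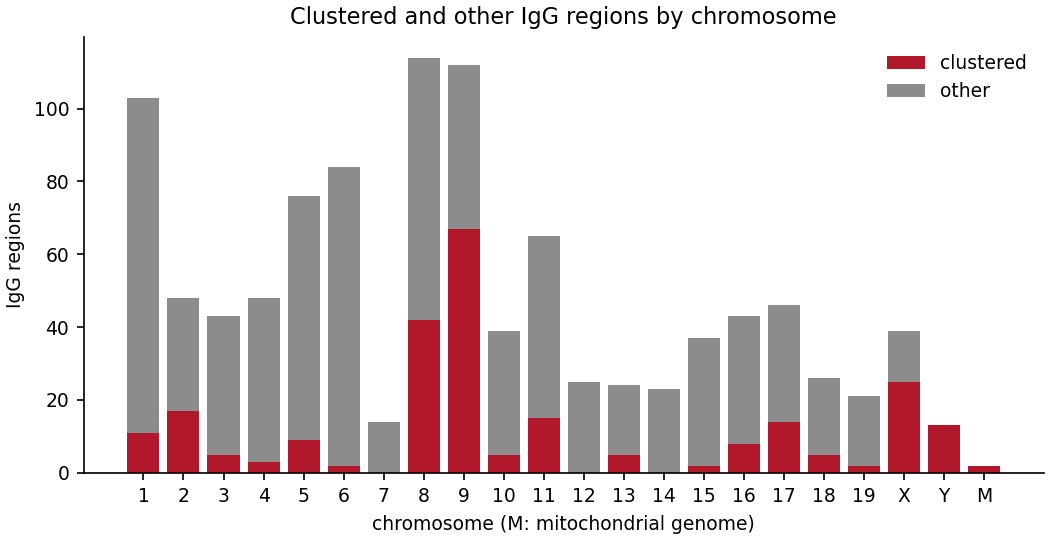
Number of IgG regions (y axis) on each chromosome, split into clustered (red) and other regions (grey). Chromosomes 9, 8 and X hold 67, 42 and 25 clustered regions, while chromosomes 1 and 6 have many IgG regions and few clustered ones.

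The start of chromosome 9 held the largest cluster, with 67 regions from 3000001 to 3038470. Its first region, from 3000001 to 3000283, had the highest score in it, 2098.02. The score is the one the authors deposited with each IgG region. No file names its scale, and its values in the whole list run from 50.01 to 3100. Scores in the cluster ranged from 51.59 to 2098.02 with a median of 209.8. The next highest were 1400.72 for the region from 3035688 to 3035996 and 1087.56 for the one from 3026614 to 3026818. The last region of the cluster, from 3038291 to 3038470, scored 53.66. Those just before it, starting at 3037996 and 3038149, scored 436.76 and 418.73. The regions were short, with a median of 98 bp and a longest of 401 bp, and 37 of the 67 were under 100 bp. They covered 22.4% of the 38.5 kb span. The gaps had a median of 265 bp, with 18 under 100 bp, and the widest, of 4666 bp, lay between the regions that start at 3010494 and 3015251. The distance between neighbouring starts had a median of 458 bp. The nearest Ovol2 region was 10514 kb away, the greatest distance among the 46 clusters on chromosomes with Ovol2 regions.

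Other chromosome starts held clusters too. The clusters on Y and the mitochondrial genome, all of which began below 4 Mb, were left out of this count. On autosomes and X, 11 clusters with 102 regions started below 4 Mb, on chromosomes 4, 9, 11, 13, 16, 17 and 18. This was 43.0% of the 237 members on autosomes and X. The share over all IgG regions of these chromosomes was 11.0%, and 11 of the 793 other regions (1.39%) started there. Without the chromosome 9 cluster the members' share was 20.6%, while the 11.0% still includes that cluster. Position is what chose the members, so this comparison is a description. In 5 of the clusters, on chromosomes 4, 9, 11, 16 and 18, the first region was also the first one called in either list on its chromosome.

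The proximal end of chromosome 11 held 4 clusters with 13 regions between 3000256 and 3100062, and these differed among themselves. The first, of 5 regions in 4.52 kb, had scores from 89.88 to 638.33 and lengths from 245 to 1403 bp. In the next 3 clusters the median lengths were 357.5, 1479 and 614 bp, above the 321 bp of the first, and the median scores were 75.3, 63.4 and 106.7, below its 270.6. Single regions crossed these orders, as the shortest of the 13, at 71 bp, was in the second cluster. A region of 3710 bp from 3065119 to 3068828 had a score of 50.01, the lowest in the list, and one of 3320 bp from 3091050 to 3094369 had 142.28. A long region thus did not imply a high score. Chromosome 4 showed a cluster of 3 regions from 3010548 to 3018393, of which one reached 1681.22 and another 53.58. The cluster on chromosome 13 (3371870 to 3372982) also had 3 regions, with a lowest score of 57.39 and a highest of 1445.58. Chromosome 18 had 5 regions within 1.98 kb, from 3004461 to 3006437, with scores from 93.7 to 1210.62. By contrast the 5 regions on chromosome 17 from 3077886 to 3082846 stayed between 51.39 and 72.89.

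The second largest cluster lay inside chromosome 8, from 19917922 to 19985951, and was unlike that of chromosome 9. Its 26 regions were spread over 68.0 kb and covered 5.58% of it, with a median gap of 1586 bp and a median of 1773 bp between neighbouring starts. Scores were low, from 51.42 to 180.15 with a median of 73.5, and 4 of the 26 reached 100. The median length was 136 bp. A further 4 clusters lay nearby, so that 40 members in 5 clusters stood between 19697618 and 20008364, a stretch of 310.7 kb with 2 other IgG regions in it. The scores of these 40 regions had a median of 74.3 and a maximum of 180.15. The sixth cluster of the chromosome, from 125255613 to 125255917, was a pair with scores of 50.96 and 53.61.

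X carried 2 of the 4 largest clusters. Near its distal end, 10 regions lay between 166427222 and 166446776, with scores from 65.78 to 284.07 and a median length of 158 bp, and no region was called beyond them in either list. The other, of 9 regions from 72901073 to 72917259, had scores from 57.84 to 303.15 and a median length of 211 bp. A pair of regions lay just before it, starting at 72888846, and a further pair ended at 73844488, and the highest score among these 3 clusters was 1244.28. On chromosome 2, clusters of 4 and 6 regions lay between 181652043 and 181667204 and ended with the last region called on that chromosome. Their scores ran from 52.29 to 728.09. Chromosome 19 ended likewise with a pair of regions, at 61339909 to 61340427, with scores of 175.44 and 228.69. Thus 3 clusters on autosomes and X held the last region called in either list.

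Further clusters of 5 to 8 regions lay inside chromosome 1 and on Y, besides those given above. The 4 clusters of 5 regions, on chromosomes 11, 17, 18 and Y, were equal in size. Chromosome 1 had 6 regions from 85251892 to 85277311, with scores from 50.91 to 113.88. Y had 8 regions from 2680630 to 2699655 with scores from 70.92 to 191.81, and 5 from 2765770 to 2777182 with scores from 63.84 to 243.3. The regions on Y had a median length of 69 bp, the lowest of the chromosomes with members, and 12 of the 13 were under 100 bp. The shortest single member, of 52 bp, was on chromosome 2. The labels do not give the sex of the cells, the Ovol2 list has no region on Y, and where in the genome the reads under these 13 regions came from was not tested.

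**Figure D3:**
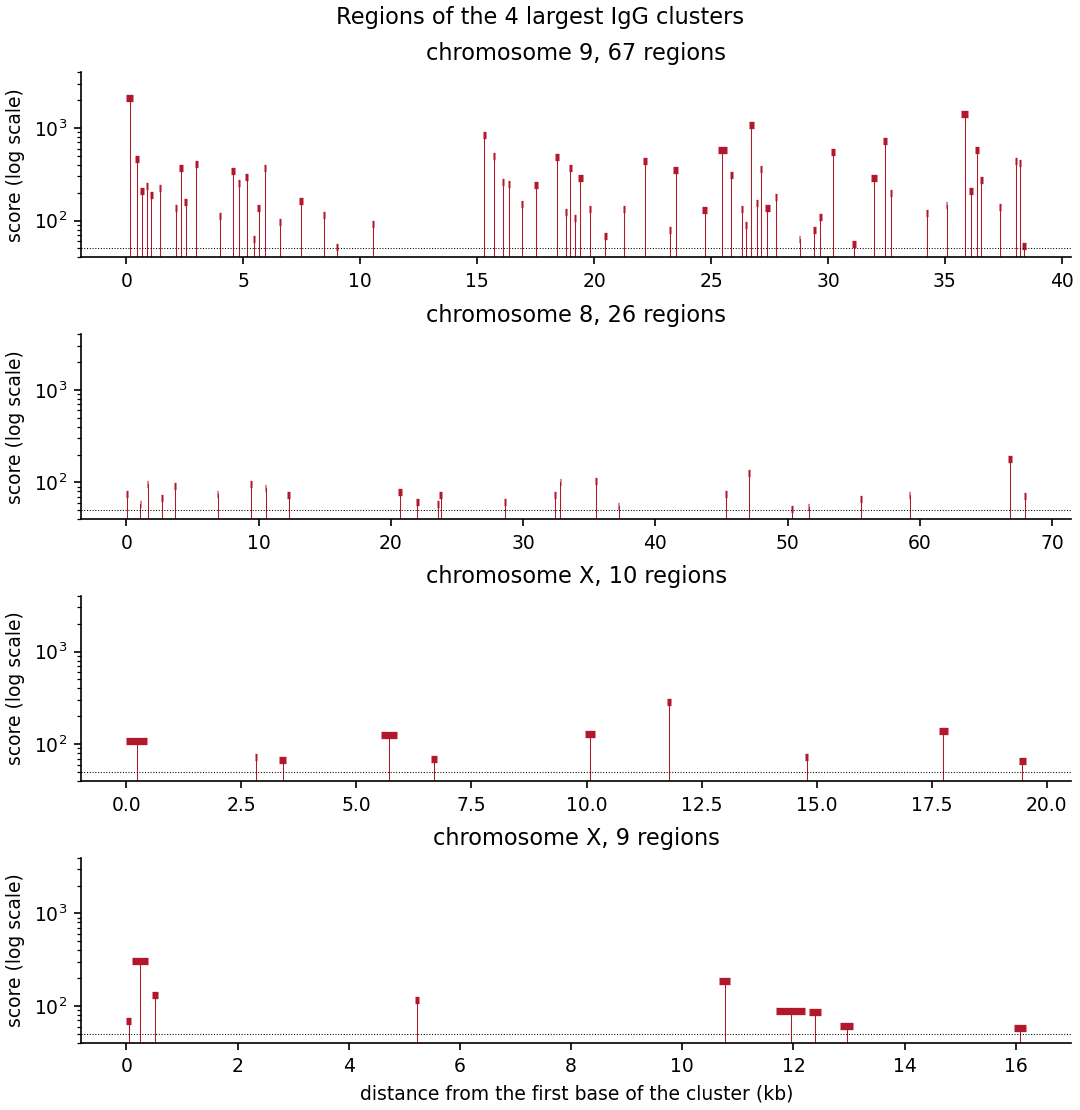
Deposited score (log y axis) of each region in the 4 largest clusters against its distance in kb from the first base of the cluster; the width of each horizontal bar is the region's length, a thin line drops from it to the axis, and the dotted line marks a score of 50. The 67 regions on chromosome 9 are dense and reach 2098.02, while the 26 on chromosome 8 stay at or below 180.15.

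The 5 highest scores among members belonged to clusters of 2 or 4 regions, and the next was the 2098.02 of the chromosome 9 cluster. A region of 992 bp on chromosome 15 (74916498 to 74917489) had 3100, the maximum of the list, and lay 196 bp from a neighbour with 700.35. On chromosome 2, a cluster of 4 regions from 98502371 to 98507510 had scores from 590.85 to 2783.2, and regions covered 54.5% of its 5.14 kb. Its regions of 796 and 1125 bp scored 2783.2 and 2752.71. The mitochondrial genome had 2 regions, from 3 to 4817 and from 10925 to 15687, with scores of 2671 and 2753.83. At 4815 and 4763 bp they were also the longest members, and made up 13.7% of the 69.7 kb that members covered. On chromosome 17 a pair from 39979904 to 39985791 covered 89.7% of its 5.89 kb span. It combined a region of 3819 bp that scored 1489.52 with one of 1464 bp that scored 249.11. The 5 members of highest score were at least 796 bp long, whereas the highest of the chromosome 9 cluster had 283 bp.

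As a whole, members had higher and more variable scores than the other IgG regions. Their median score was 108.0, with an interquartile range of 71.7 to 236.4, and the median of the other regions was 57.4, with a range of 53.4 to 64.6. Both sets had a lowest score of 50.01 and a highest of 3100, so most other regions lay close above the lowest. Whether these extremes are limits of the calling or of the scale is not known. Scores come from the same peak calls as the positions that chose the members, so no test was made. A score of at least 100 was found for 142 of 252 members (56.3%), against 21.9% of all IgG regions and 87 of 793 other regions (10.97%). The chromosome 9 cluster added to this but did not make it, as 86 of the 185 members outside it (46.5%) reached 100 and their median was 93.4. Counted once each, the 49 clusters had a median of their median scores of 103.5, and in 46 of them the median was above that of the other regions. Every region scored at least 100 in 12 clusters, and none did in 10. Of these, 11 of the 12 and 8 of the 10 had only 2 or 3 regions. High scores were not limited to clusters: members made up 59 of the 100 highest scores and 5 of the 10 highest. The maximum of 3100 was also given to a region on chromosome 9 (35112726 to 35113195) whose nearest IgG region was 340044 bp away.

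The lengths of members differed from those of the other regions more in spread than in the median. The median member was 135 bp long and the middle 50% of members measured 91 to 212 bp. For the other regions the median was 124 bp and the middle 50% lay between 111 and 134 bp. The order-statistic 95% interval of the members' median was 122 to 146 bp, which includes 124 bp. Without the chromosome 9 cluster the median was 143 bp, with an interval of 132 to 157 bp, which does not. Counted once each, the 49 clusters had a median of their median lengths of 142 bp (129.5 to 230 bp). In 34 of the 49 the median was above 124 bp. The intervals over regions assume that these are independent, which neighbours are not. Only 59 of the 252 members (23.4%) were 100 to 150 bp long, against 63.8% of all IgG regions and 608 of the 793 other regions (76.7%). Members were found on both sides of that range. Those under 100 bp numbered 89 (35.3%), against 17.2% of all IgG regions and 91 other regions (11.5%). Of the 89, 37 were in the chromosome 9 cluster. At least 500 bp was reached by 21 members (8.33%), against 2.30% of all IgG regions and 3 of the other regions. All 11 IgG regions of at least 1 kb were members. Across the 252 members, length and score had a Spearman correlation of 0.28, and across the 793 other regions it was -0.04. These values describe regions of 1 library that share its depth and, for members, a neighbourhood. It varied between subsets of members, at 0.50 over the 67 regions of the chromosome 9 cluster, 0.23 over the 26 of the large chromosome 8 cluster, 0.63 over the 40 in clusters of 2 and 0.25 over the 119 in clusters of 3 to 10. On Y it was -0.20 over 13 regions and on chromosome 11 it was -0.29 over 15, so length and score did not rise together in every subset.

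**Figure D4:**
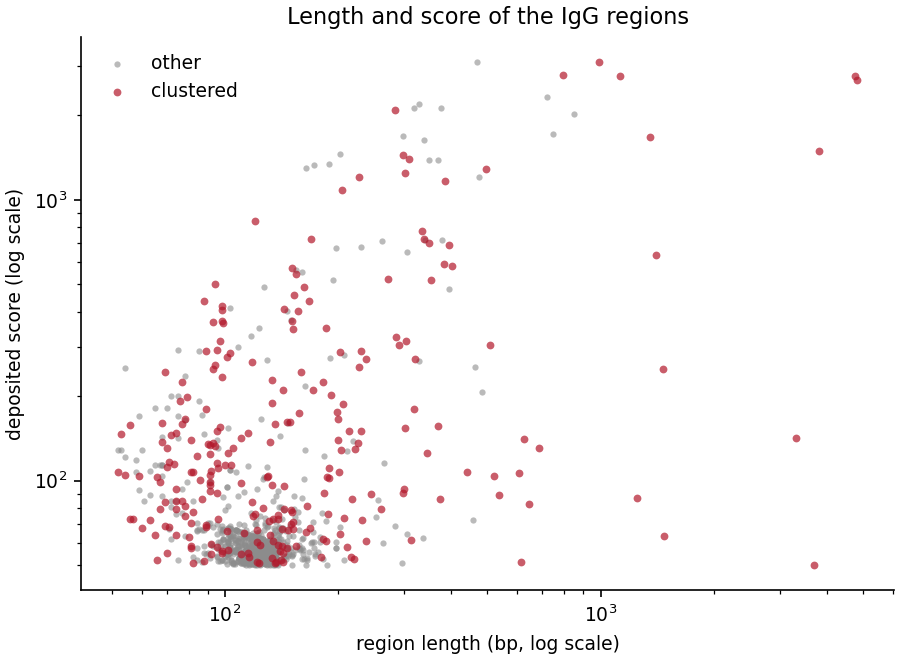
Deposited score (log y axis) against region length in bp (log x axis) for the 252 clustered (red) and 793 other IgG regions (grey). The other regions crowd near 124 bp and 57.4, while clustered regions extend to shorter lengths, to lengths above 1 kb and to higher scores.

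The Ovol2 list was not used to choose the clusters, and it had no region inside any of them. On the chromosomes that have Ovol2 regions, 0 of 237 members overlapped one, and a count of 0 leaves room for up to 1.27% by counting error if neighbouring regions are taken as independent. Counted as clusters, 0 of 46 overlapped one, which leaves room for up to 6.52%. Of the other IgG regions 6 of 793 (0.757%) did, which was 0.583% of all 1030 IgG regions on these chromosomes. Overlap was thus rare over the whole list, and the count of 0 was not tested against it. Whether the Ovol2 regions were called or filtered against the IgG library was not known here, so the lists may not be independent. The Ovol2 list has no region on Y or the mitochondrial genome, so 46 of the 49 clusters could be placed. The distance from a cluster to the nearest Ovol2 region had a median of 784.0 kb, with an order-statistic 95% interval of 459.3 to 1357 kb. For the other IgG regions the median was 783.8 kb, inside that interval.

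Few clusters had an Ovol2 region close by. An Ovol2 region under 100 kb away was found for 1 of 46 clusters (2.17%, exact binomial 95% interval 0.0550 to 11.5%), and for 102 of 793 other IgG regions (12.9%, 10.6 to 15.4%). The intervals overlap slightly, and the difference was not tested. The clusters' share depended on the gap that joins regions: it was 0% with gaps under 1 kb, 2.04% under 5 kb, 4.55% under 20 kb and 9.68% under 100 kb, the last against 12.8% of the regions then left over. Counted as regions, 3 of 237 members (1.27%) had such a neighbour against 10.2% of all IgG regions, but all 3 belonged to the same cluster. Among the clusters that started at or above 4 Mb the count was 1 of 35 (2.86%, 0.0723 to 14.9%), and among other regions starting there 101 of 782 (12.9%). Within 500 kb the shares were 34.8% of clusters and 38.2% of other regions, and within 1 Mb 58.7% and 56.2%.

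The cluster nearest to an Ovol2 region had 3 regions on chromosome 10, from 57686732 to 57689362, with scores of 79.01, 69.37 and 137.34. It lay 28.3 kb from the Ovol2 region at 57717627 to 57718374, and its 3 regions, at 28.3, 29.4 and 30.8 kb, were the nearest members. Next came the pair on chromosome 16, from 93949062 to 93953257, with scores of 55.2 and 53.08. Its regions were 115.5 and 119.6 kb from an Ovol2 region. Then followed the distal cluster of the chromosome 11 group, from 3091050 to 3100062, at 131.9 kb. All 4 clusters of that group had the same nearest Ovol2 region, at 3231983 to 3232819. After that of chromosome 9, the most distant clusters were on chromosome 4 (5965 kb) and the pair of clusters on chromosome 5 that starts at 14963023 (5797 and 5575 kb).

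**Figure D5:**
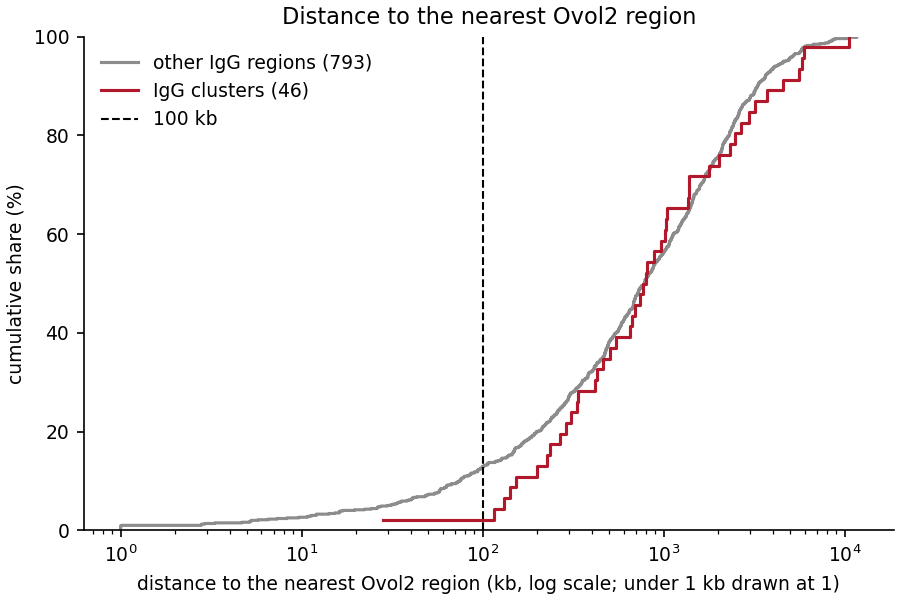
Cumulative share in percent (y axis) of the 46 IgG clusters (red) and the 793 other IgG regions (grey) by distance in kb to the nearest Ovol2 region (log x axis, distances under 1 kb drawn at 1), with 100 kb dashed. At 100 kb the lines stand at 2.17% and 12.9%, and they run together around the medians of 784.0 and 783.8 kb.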

How the data were processed

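The authors deposited a BED list of regions for each library. Per the submitters' processing notes, the build was mm9 and the tools Bowtie 0.12.8, SAMtools 0.1.18 and bedtools 2.15.0, with no role or order. IgG regions were deposited with a score of unnamed scale and are named as MACS peaks, numbered without a break from 1 to 1045. The Ovol2 list's caller, both thresholds and the handling of duplicates and of reads with several matches were not given in the sources used here. Handling of the latter can decide which repeats are called. Positions were converted to 1-based coordinates. Regions were sorted, chained by edge-to-edge gaps under 10 kb and measured to the nearest Ovol2 region, with Python 3.11.15, numpy 2.4.6, pandas 2.3.3 and scipy 1.17.1 (figures: matplotlib 3.10.9). The chaining and distances were tested on simulated lists. Proportions carry exact (Clopper-Pearson) intervals and medians order-statistic intervals. All cover counting error only. The limit for a count of 0 is 3 counts. Named were the 10 clusters with most regions (equal sizes ordered by longer span), the 5 members of highest score, the 5 nearest to an Ovol2 region, those on Y and the mitochondrial genome, and those at the 10 kb limit. Further regions, and the limits of 500 bp and a score of 100, were chosen after values were seen. Members and rules were set with earlier results of these data known.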

Additional observations from a re-analysis of the deposited data

How the results depend on the processing

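Leaving out a replicate was not possible, as each antibody had a single library. The 9 alternatives were gaps under 1, 5, 20 or 100 kb, midpoints in place of edges, clusters of at least 3 regions, regions at or above the median score of the list, autosomes and X alone, and the largest cluster left out. Leaving out the clusters of autosomes and X below 4 Mb, and counting each cluster once, were added after the data were seen. In the former, the clusters on Y and the mitochondrial genome were kept. The median length and the median distance to an Ovol2 region stayed inside their intervals under every alternative run for them. Whether the interval of the median length included 124 bp depended on the alternative. It was 126 to 151 bp with gaps under 1 kb and 112 to 142 bp with clusters of at least 3 regions. The 252 members became 150 without the clusters of autosomes and X below 4 Mb, and the 49 clusters became 29 when 3 regions were required. Both follow from leaving clusters out. The median score of 108.0 was 136.6 with gaps under 1 kb, 92.5 with gaps under 100 kb and 93.4 without the largest cluster. Without the clusters of autosomes and X below 4 Mb it was 91.9. These values were above 57.4, the median of the other regions in the main run, which was not recomputed. With regions at or above the median score it was 134.7. Every region kept there scored at least 60, so a value above 57.4 was fixed in advance. The share starting below 4 Mb, 43.0%, was 51.1% with gaps under 1 kb, 34.8% with gaps under 100 kb and 20.6% without the largest cluster. The share of clusters with an Ovol2 region within 100 kb was 0% with gaps under 1 kb, when the chromosome 10 cluster was no longer joined. That 0% and the fall to 20.6% follow from the regions left out, as all 67 regions of the largest cluster start below 4 Mb. The cause of the other shifts was not tested. Without known read depth, a place with no called region cannot be taken as free of signal.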

Other observations

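Repeated values set members apart from the rest of the list. The same length and score together were shared with at least 1 further IgG region by 263 of the 793 other regions (33.2%). Among members 6 of the 252 did so (2.38%), and among all IgG regions 25.7%. The other regions crowd in a narrow range of both measures, where such ties are easier, and the part of that crowding in the difference was not tested. No members of the same cluster had the same score, although 30 had the length of a cluster mate, of which 28 were on chromosome 9.

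Clusters themselves had neighbours. When clusters less than 1 Mb apart were joined, 49 clusters made 36 groups, and 7 groups of several clusters held 20 clusters with 102 regions. Besides those on chromosomes 8, 11, 2, X and Y, these were a pair of clusters on chromosome 5 between 14963023 and 15193874, with 7 members and 2 other IgG regions, and a pair on chromosome 16 between 3113693 and 3351184, with 6 members. None of the 36 groups held an Ovol2 region, which was fixed in advance for those on Y and the mitochondrial genome, where the Ovol2 list has none.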
